A study of Mus musculus with 34 samples.

Results

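A set of 10 genes of pluripotency and germline identity was followed through mouse sperm formation: Pou5f1, Nanog, Sox2, Klf4, Lin28a, Sall4, Prdm14, Zfp42, Esrrb and Tfap2c. They were chosen by name from the 21887 protein-coding genes of the RefSeq gene table (build GRCm38.p6), and all 10 were found in it. For each gene, every deposited interval that overlapped the gene body or the 1 kb on either side of either annotated end was collected. A gene is said to have an interval "at an end" when at least 1 bp lay within 1 kb of either end, inside or outside the gene.

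The study profiled open chromatin with ATAC-seq, in which the Tn5 transposase inserts sequencing adapters into accessible DNA, in male germ cells of 3 backgrounds at 4 stages. The stages were a meiotic fraction (MS, "Meiotic Spermatid" in the labels), round spermatids (RS), elongating spermatids (ES) and mature sperm of the cauda epididymis (Sp). The backgrounds were SV129 mice aged 8 to 12 weeks, C57BL6 GCN5+/+ mice (WT) and C57BL6 GCN5-/- mice (cKO), in which Cre expressed from the Stra8 promoter had removed Gcn5 in germ cells. Gcn5, encoded by Kat2a, is a histone acetyltransferase. SV129 and WT are together called intact, since neither carries the deletion, and they differ in strain. There were 34 libraries in 12 groups: 4 per SV129 group (2 biological replicates, each run in 2 technical repeats) except 6 for SV129 sperm, and 2 per WT and cKO group. Testis cells were separated by sedimentation and fractions of at least 85% purity were pooled, each SV129 collection came from 11 mice, and sperm were treated with a buffer that lyses somatic cells. The age and the number of mice behind a WT or cKO library are not given in the sources used here. Stra8 is switched on in germ cells as they prepare for meiosis.

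The authors deposited 2 lists per group, 24 in all. By their names, subnucleosome peaks mark sites of fragments shorter than a nucleosome, usually read as open DNA, and nucleosome calls mark nucleosomes, each 150 bp wide in the lists. The rule that divided fragments between the classes was not stated in the sources used here. There is 1 list of each class per group and no value per library, so there was no replicate error, no test was possible, and every difference given is between single lists. Depth is unknown. A site missing from a list may be closed, open in too few cells, or too thinly sequenced, and these cannot be told apart.

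Pou5f1 (also called Oct4), Sox2 and Nanog encode the transcription factors at the core of the network that keeps embryonic stem cells pluripotent, and they bind and activate one another's genes. Klf4 and Esrrb are further activators of that network, Zfp42 (Rex1) is a widely used marker of naive pluripotent cells, and Lin28a encodes an RNA-binding protein that blocks maturation of let-7 microRNAs. Prdm14 and Tfap2c are needed to set up primordial germ cells, and Sall4 acts in both stem cells and spermatogonia. In the germ line Pou5f1, Nanog and Prdm14 act in primordial germ cells, Lin28a and Sall4 are also made in spermatogonia and Klf4 in round spermatids, and it has long been asked whether the chromatin of such genes stays open in sperm.

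The promoters on which the peaks turn are shown first, as the 250 bases before the annotated start, read 5′ to 3′ on the gene's strand and taken from RefSeq (GRCm38.p6). Capitals mark bases that lay under a subnucleosome peak in at least 1 of the 12 lists. Klf4, Sox2 and Zfp42 are the members with a peak across the bases before their start, the second start of Esrrb had a peak in the meiotic list of all 3 backgrounds, and Pou5f1 is shown as a promoter with none. A promoter entry was found for 7 of the 10 genes, and Sall4, Prdm14 and Tfap2c had no entry.
Klf4, chr4:55532476-55532725, minus strand: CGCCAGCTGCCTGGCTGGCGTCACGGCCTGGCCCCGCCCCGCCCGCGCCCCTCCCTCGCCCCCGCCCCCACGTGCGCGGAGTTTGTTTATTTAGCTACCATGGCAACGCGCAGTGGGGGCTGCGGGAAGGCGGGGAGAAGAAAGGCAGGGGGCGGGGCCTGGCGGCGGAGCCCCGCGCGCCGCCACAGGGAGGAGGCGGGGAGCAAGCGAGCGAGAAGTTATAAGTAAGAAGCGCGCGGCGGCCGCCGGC
Sox2, chr3:34649745-34649994, plus strand: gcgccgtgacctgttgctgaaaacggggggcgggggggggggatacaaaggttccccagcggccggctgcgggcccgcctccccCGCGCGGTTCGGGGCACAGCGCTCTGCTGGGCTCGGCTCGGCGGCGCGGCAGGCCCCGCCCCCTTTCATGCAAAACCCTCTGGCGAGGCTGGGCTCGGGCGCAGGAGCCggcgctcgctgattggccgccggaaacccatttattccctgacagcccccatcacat
Zfp42, chr8:43307010-43307259, minus strand: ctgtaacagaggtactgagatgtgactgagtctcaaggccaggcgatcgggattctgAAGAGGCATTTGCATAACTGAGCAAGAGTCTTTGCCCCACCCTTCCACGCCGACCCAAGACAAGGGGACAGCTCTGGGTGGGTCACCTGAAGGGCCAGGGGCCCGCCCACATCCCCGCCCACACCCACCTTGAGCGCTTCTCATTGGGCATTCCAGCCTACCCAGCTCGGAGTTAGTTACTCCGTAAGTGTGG
Esrrb, second start, chr12:86421394-86421643, plus strand: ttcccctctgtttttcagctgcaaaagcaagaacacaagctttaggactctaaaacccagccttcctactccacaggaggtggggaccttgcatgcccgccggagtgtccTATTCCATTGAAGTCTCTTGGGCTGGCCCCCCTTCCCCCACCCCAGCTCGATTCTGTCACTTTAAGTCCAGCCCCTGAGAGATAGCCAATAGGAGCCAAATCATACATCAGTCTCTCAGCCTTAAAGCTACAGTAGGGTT
Pou5f1, first start, chr17:35505782-35506031, plus strand: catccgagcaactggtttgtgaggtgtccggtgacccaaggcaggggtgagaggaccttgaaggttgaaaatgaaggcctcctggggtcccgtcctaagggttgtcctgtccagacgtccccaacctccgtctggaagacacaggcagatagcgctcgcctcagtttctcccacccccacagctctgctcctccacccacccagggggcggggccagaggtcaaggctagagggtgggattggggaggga

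Among these 5 windows the Klf4 one was covered by peaks over all 250 bases, the Zfp42 one over 193, the window at the second start of Esrrb over 140 and the Sox2 one over 109. CpG content separated them. The observed to expected ratio of CpG was 0.941 in the Klf4 window, higher than in 88.0% of 21263 promoters of 17492 genes, and 0.833 in the Sox2 window, higher than in 78.1%. In the Zfp42 window it was 0.423, lower than the median of all promoters of 0.530 (quartiles 0.217 and 0.800). Esrrb had 0.264 at its first start and 0.188 at its second, and that second window still lay partly under a peak. The remaining members were also below the median, with 0.336 for Lin28a, 0.334 and 0.467 at the pair of Pou5f1 starts, and 0.182 and 0.104 at those of Nanog. Klf4 and Sox2 are thus the CpG-rich promoters of the set, while a peak in the window also occurred at the CpG-poorer Zfp42 and Esrrb.

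Over all promoters, those with a subnucleosome peak in the same 250 bases were richer in CpG than those without in each MS, RS and sperm list. The ES lists had peaks at too few promoters to compare, 4, 5 and 11. The median ratio was 0.790 with a peak and 0.281 without in SV129 MS, 0.786 and 0.264 in WT MS, and 0.791 and 0.343 in cKO MS. Short motifs were searched on both strands: GGGCGG, a GC box, then CCAAT, and lastly TATAAA. Of all promoters of this length, 42.6% hold GGGCGG, 35.4% hold CCAAT and 11.6% hold TATAAA. The Klf4 window held 4 matches to GGGCGG, at 217, 212, 189 and 101 bases before the start, and no CCAAT. The Sox2 window held GGGCGG at 223 and 111 bases and CCAAT at 46 bases before the start, and in the Zfp42 window GGGCGG stood at 91 and 79 bases and CCAAT at 51 bases. Esrrb had a single CCAAT at 55 bases before its second start, inside the stretch under peaks. Pou5f1, with no peak, had GGGCGG at 45 bases and CCAAT at 12 bases before its first start. None of the 10 windows of the 7 members held TATAAA, and no match by itself marks a bound site.

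**Figure D1:**
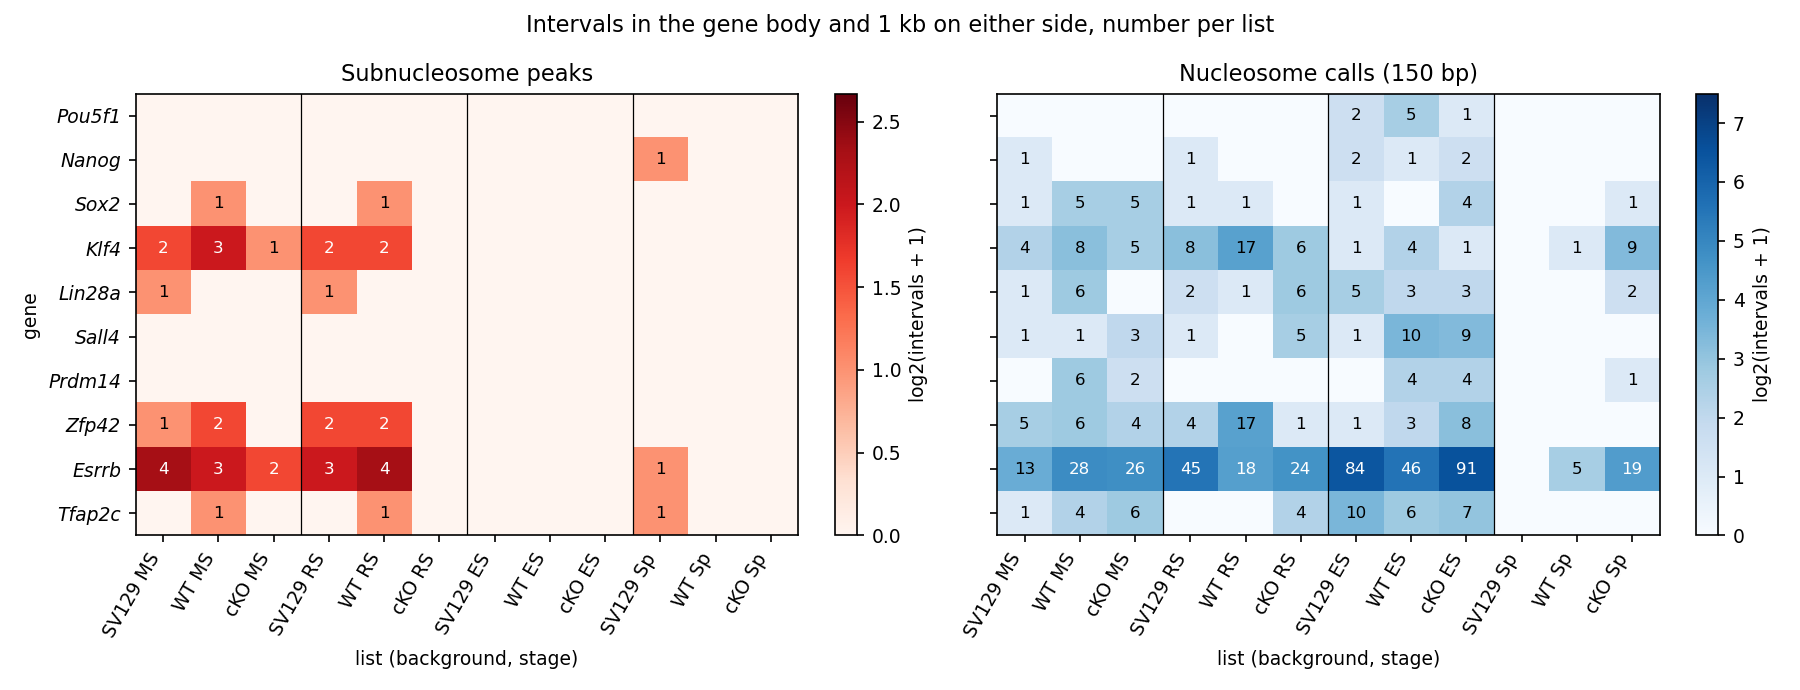
Number of subnucleosome peaks (left) and nucleosome calls (right) in the gene body and the 1 kb on either side, for each of the 10 genes (vertical axis) in each of the 12 lists (horizontal axis); colour is log2(number + 1) and empty cells are 0. Subnucleosome peaks stand at MS and RS and in SV129 sperm, no ES list has one, and Esrrb, the longest gene, holds the most calls, up to 91 in cKO ES.

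Subnucleosome peaks at the ends of the 10 genes were few. In the meiotic lists 1 gene had one in SV129 (Klf4), 3 in WT (Sox2, Klf4 and Zfp42) and 1 in cKO (Klf4), against 48.6%, 51.2% and 35.8% of all protein-coding genes in the same lists. In round spermatids the counts were 2 in SV129 (Klf4 and Zfp42), 3 in WT (Sox2, Klf4 and Zfp42) and 0 in cKO, against 43.1%, 50.3% and 12.0% of all genes. No member had a peak at ES, where 0.155%, 0.0731% and 0.119% of all genes in SV129, WT and cKO had one. In sperm the count was 1 in SV129 (Nanog) and 0 in WT and cKO, against 23.1%, 8.70% and 3.55% of all genes. In the 6 lists of MS and RS the share of members was below that of all genes, and with 10 genes a single gene weighs heavily in such a share.

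The lists of WT and cKO differed in length: WT had 35822 peaks at MS and 56480 at RS, and cKO had 16087 and 4075. When the WT lists were reduced to their highest-scored peaks, as many as in the cKO list of that stage, 1 member (Zfp42) had a peak at an end in WT MS, the same number as in cKO MS, where it was Klf4. In WT RS 0 did, as in cKO RS. Over all genes the reduced WT lists reached 37.6% at MS and 9.56% at RS. At equal length the numbers of members were thus the same, while the gene at MS differed. List length, depth and loss of sites cannot be told apart. SV129, also intact, differed from WT by 2 genes at MS and 1 at RS with no deletion involved.

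**Figure D2:**
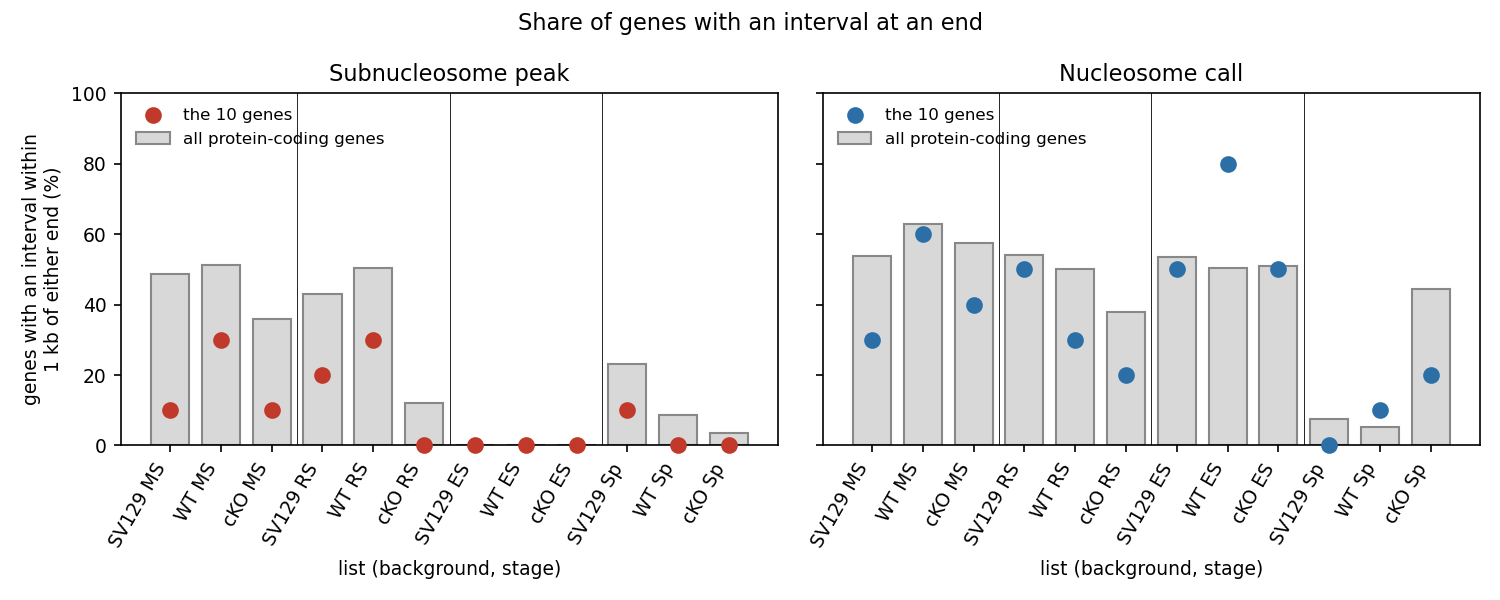
Percent of the 10 genes (points) and of all 21887 protein-coding genes (bars) with an interval within 1 kb of either end, in each of the 12 lists, for subnucleosome peaks (left) and nucleosome calls (right); both axes start at 0 and single lists carry no error bar. Points lie below the bars in every MS and RS subnucleosome list, while for nucleosome calls the WT ES point, 8 of 10 genes, is the highest.

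Klf4 (chromosome 4, 55527137 to 55532475, minus strand, 5.34 kb), which encodes a zinc-finger factor of the reprogramming set, had the most peaks at an end, 10 in 5 lists. They fell at 2 places. The distal place, 643 to 447 bases before the start, had a peak in all 5 of these lists: 124 bp wide in SV129 MS, 164 bp in WT MS, 180 bp in cKO MS, 130 bp in SV129 RS and 169 bp in WT RS. It was the only place at the end of a member that kept a peak in cKO MS. The proximal place, from 353 bases before the start to 301 after, had peaks in SV129 MS (83 bp), WT MS (443 bp and 92 bp), SV129 RS (178 bp) and WT RS (302 bp), and none in cKO. The 443 bp peak of WT MS ran across the start, and the other 4 ended before it. The lncRNA gene Gm12506 lies within 1 kb of this end, so neither place belongs to Klf4 alone. No Klf4 peak was called in cKO RS, in any ES list or in any sperm list, and the nearest peak in each sperm list was 177 kb away.

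The scores deposited for these Klf4 peaks were low to middling within their lists. At the distal place 54.2% of all WT MS peaks scored lower, 15.1% of cKO MS peaks did, and 70.5% of WT RS peaks did. At the proximal place the 443 bp peak of WT MS scored above 20.0% of its list and the 92 bp one above 0.246%, while the WT RS peak scored above 70.5%. The scale of the score is not stated and the SV129 lists carry 0 throughout, so ranks were read within 1 list only.

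**Figure D3:**
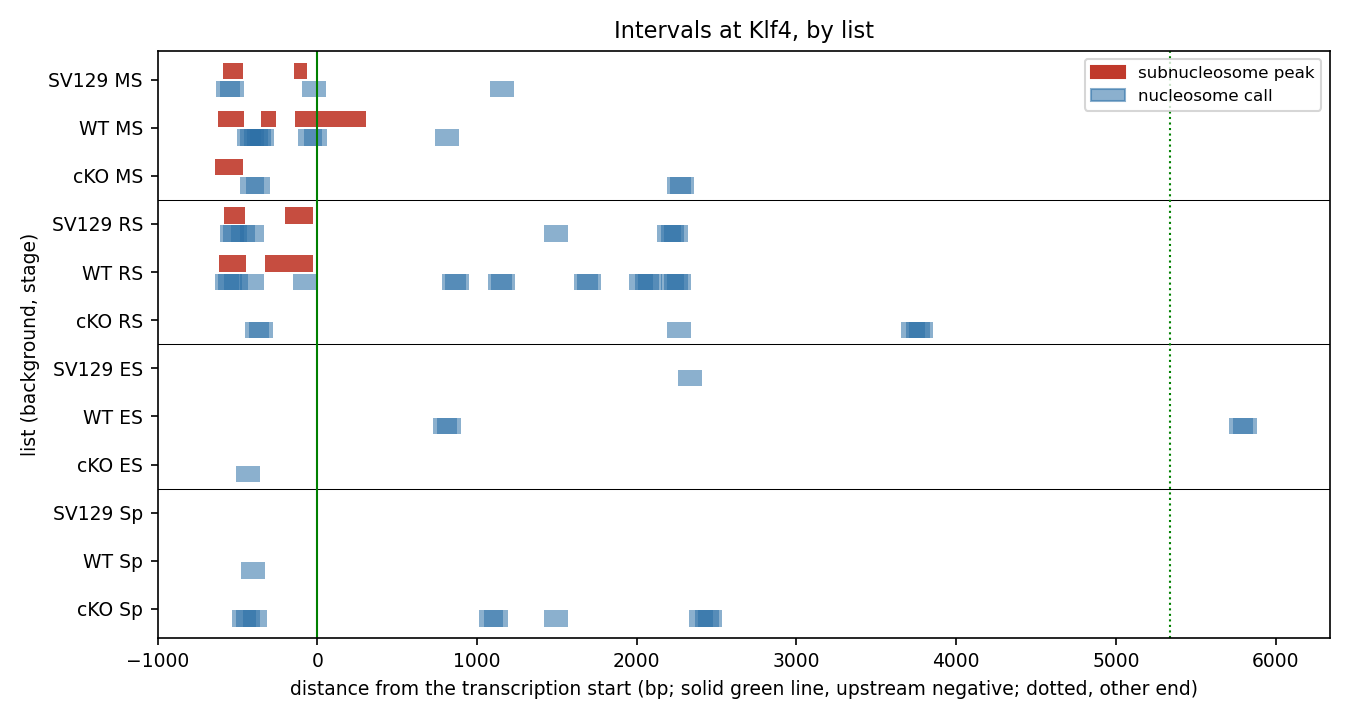
Intervals at Klf4 by list (vertical axis) against the distance from the transcription start in bp (horizontal axis, upstream negative); red bars are subnucleosome peaks, blue bars nucleosome calls, the solid green line is the start and the dotted line the other end. Peaks stack at 643 to 447 bases upstream in 5 lists, and nucleosome calls at 641 to 272 bases upstream recur in 9 lists, WT and cKO sperm included.

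Nucleosome calls at Klf4 recurred at the same place in more lists than at the other members. A merged stretch from 641 to 272 bases upstream had calls in 9 of the 12 lists, 24 calls in all, and was missing in SV129 ES, WT ES and SV129 sperm. It covered nearly all of the distal place of the subnucleosome peaks and reached into the proximal place, so over the lists these bases carried both classes of interval. A second stretch, 1949 to 2533 bases into the gene, had calls in 6 lists. In total 64 calls in 11 lists fell on Klf4, with 4, 8 and 5 at MS in SV129, WT and cKO, 8, 17 and 6 at RS, 1, 4 and 1 at ES, and 0, 1 and 9 in sperm. WT round spermatids had the highest number and SV129 sperm was the list with none.

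Sox2 (chromosome 3, 34649995 to 34652461, plus strand, 2.47 kb) encodes the HMG-box partner of Oct4. Its subnucleosome peaks were limited to WT: 109 bp at MS, from 166 to 58 bases before the start, and 78 bp at RS, from 154 to 77 bases before it. They ranked above 34.3% and 16.4% of their lists, and neither SV129 nor cKO had a peak at the gene at MS or RS. The nearest peak at MS was 9.04 kb away in SV129 and 9.05 kb in cKO, and at RS it was 9.05 kb away in SV129 and 850 kb in cKO. Sox2 lies inside the long noncoding gene Sox2ot, so an interval here cannot be given to either gene alone.

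Nucleosome calls lay on Sox2 in 8 lists, 19 calls in all. At MS there were 1 in SV129, 5 in WT and 5 in cKO, and their places differed: 394 to 543 bases upstream in SV129, 154 to 343 bases upstream for 3 of the 5 in WT, and from 13 bases before to 176 after the start for 3 of the 5 in cKO. The WT stretch thus sat just upstream of the WT peak and touched its edge. Calls at 782 to 1306 bases into the gene recurred in 4 lists (cKO MS, SV129 RS, WT RS and SV129 ES). In sperm 1 call was found in cKO, past the far end of the gene, and 0 in SV129 and WT.

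Zfp42 (chromosome 8, 43295067 to 43307009, minus strand, 11.9 kb), the gene of the Rex1 marker, had 7 peaks at 2 places. Over the start, a peak was called in WT MS (221 bp), SV129 RS (98 bp) and WT RS (203 bp), and none in SV129 MS. A second place about 1 kb into the gene had a peak in SV129 MS (303 bp), WT MS (204 bp), SV129 RS (99 bp) and WT RS (123 bp). The inner peak was the stronger by rank in both WT lists, scoring above 57.1% of WT MS peaks and 75.1% of WT RS peaks, against 10.8% and 38.4% for the peak over the start. No cKO list had a peak on Zfp42. The 1 kb limit falls across the inner place: the peaks of WT MS and WT RS begin 956 and 999 bases from the start, just inside, and those of SV129 MS and SV129 RS begin 1001 and 1015 bases from it, just outside. With the limit at 2 kb Zfp42 joined the SV129 MS count, as did Lin28a.

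Calls of the nucleosome class on Zfp42 numbered 49 in 9 lists, none of them a sperm list. They were 5, 6 and 4 at MS in SV129, WT and cKO, 4, 17 and 1 at RS, and 1, 3 and 8 at ES. A stretch at 1093 to 1317 bases, partly under the inner peak, had calls in 5 lists, among them cKO MS, where no subnucleosome peak was called. At MS the inner place thus held nucleosome calls in all 3 backgrounds and a peak in the intact ones.

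**Figure D4:**
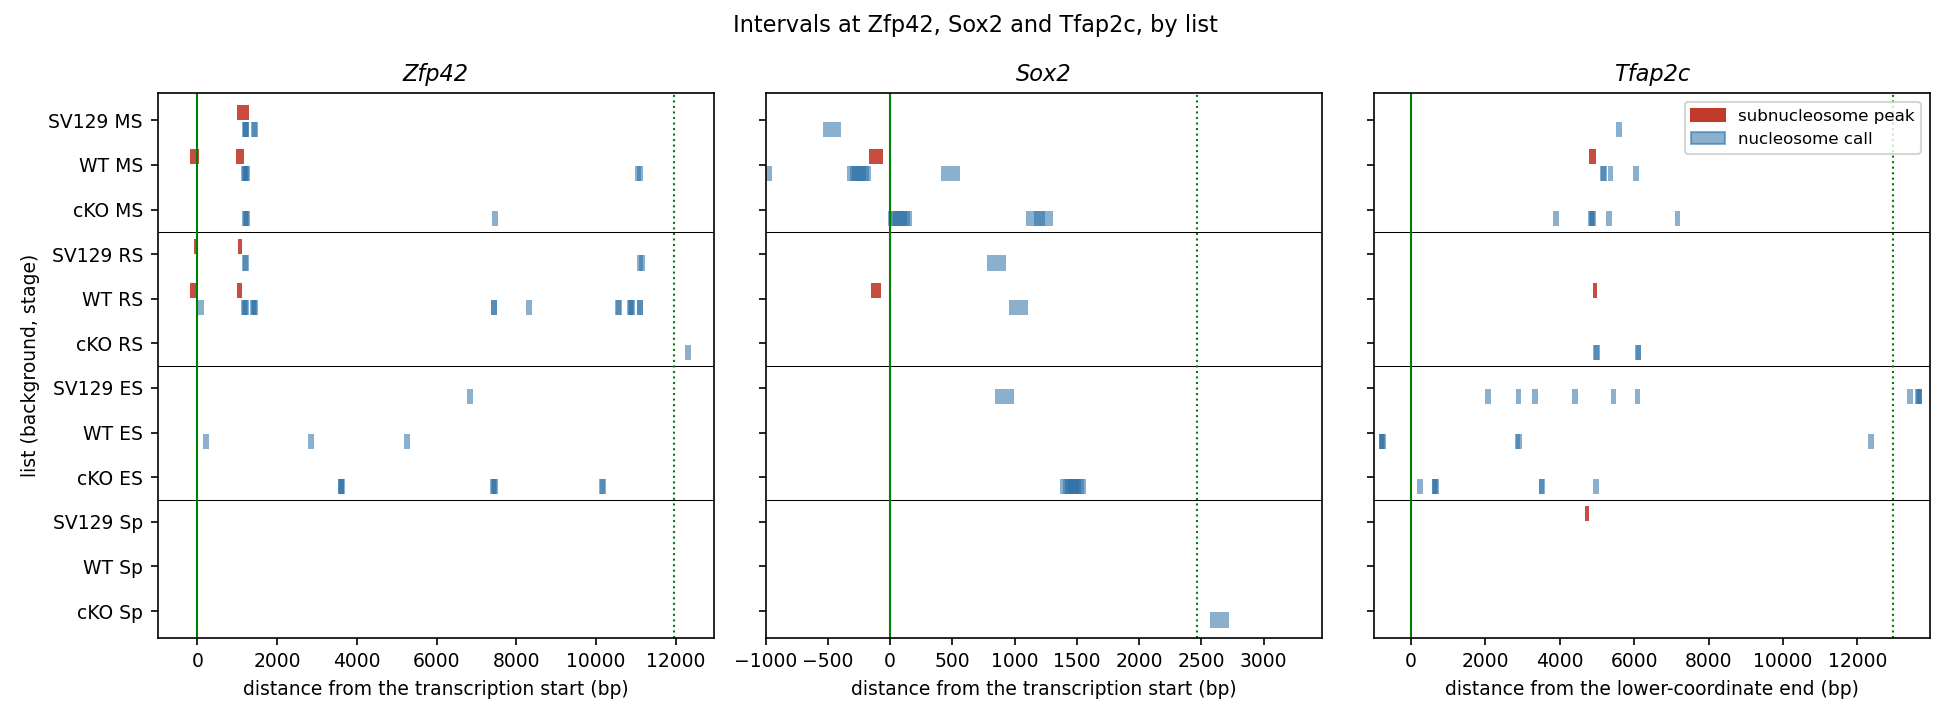
Intervals at Zfp42, Sox2 and Tfap2c by list (vertical axis) against the distance in bp (horizontal axes) from the transcription start, or for Tfap2c from its lower-coordinate end; red bars are subnucleosome peaks, blue bars nucleosome calls, solid and dotted green lines the gene ends. The inner Zfp42 peak stands in 4 intact lists, the Sox2 peak in WT MS and WT RS, and at Tfap2c the peaks of WT MS, WT RS and SV129 Sp lie within 4690 to 4989 bp.

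Esrrb (chromosome 12, 86361117 to 86521628, plus strand, 161 kb) encodes an orphan nuclear receptor of the network and had 17 peaks in 6 lists, none within 1 kb of an annotated end. Its second start lies well inside the gene. There a peak was called at MS in all 3 backgrounds, with widths of 239 bp (SV129), 341 bp (WT) and 199 bp (cKO), and in no later list. It scored above 48.9% of WT MS peaks and 8.52% of cKO MS peaks. Counted by transcription starts in place of gene ends, Esrrb therefore joined Klf4 in all 3 meiotic lists. Of the 7 members with an annotated start, 3 had a peak within 1 kb of one in SV129 MS (Klf4, Lin28a, Esrrb), 4 in WT MS (Sox2, Klf4, Zfp42, Esrrb) and 2 in cKO MS (Klf4, Esrrb). Among the 17492 genes with a promoter entry the shares were 50.8%, 53.6% and 37.9%. Sall4, Prdm14 and Tfap2c have no entry and had no peak at an end, so leaving them out by itself raises the share of members. The shares at starts can therefore not be set against those at gene ends.

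The member peak with the highest rank in the WT MS, cKO MS and WT RS lists was at an inner site of Esrrb, 108881 to 109099 bases from the first start (chr12:86469998-86470216). It was called in 5 lists: 204 bp wide in SV129 MS, 219 bp in WT MS, 186 bp in cKO MS, 187 bp in SV129 RS and 192 bp in WT RS. It scored above 98.4% of WT MS peaks, 97.1% of cKO MS peaks and 92.6% of WT RS peaks. In cKO MS, where Esrrb had 2 peaks, this site stood near the top of a shorter list.

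Nucleosome calls stood on both sides of that Esrrb site. One stretch, 109020 to 109424 bases from the start, had 31 calls in 6 lists, the 5 with the peak and SV129 ES. Another, 108725 to 108929 bases, had 7 calls in SV129 MS, WT MS and WT RS. Neither stretch had a call in a sperm list or in cKO RS, where the peak was missing too. The cKO RS list had no subnucleosome peak on any of the 10 genes.

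A further Esrrb site at 150938 to 151080 bases had peaks in SV129 MS, WT MS and WT RS, and one at 72273 bases in SV129 MS and SV129 RS. The others were in 1 list each: 54806 and 81237 bases in WT RS, 68288 bases in SV129 RS and 74382 bases in SV129 sperm. The pair in WT RS scored above 1.73% and 6.49% of that list, so they were among its weakest peaks.

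Length has to be set aside when Esrrb is compared with the other genes. Beyond 1 kb from its ends it had 2.52, 1.89 and 1.26 subnucleosome peak centres per 100 kb at MS in SV129, WT and cKO, against 0.978, 1.11 and 0.418 over the bodies of all genes. At RS it had 1.89, 2.52 and 0 per 100 kb, against 0.875, 1.85 and 0.0843. The other members together had 2.66, 2.66 and 0 at MS and the same at RS, from 2 centres in each intact list. The higher density of peaks in the intact lists was thus not particular to Esrrb. For nucleosome calls the Esrrb densities were 8.20, 15.1 and 15.8 per 100 kb at MS, 27.1, 11.4 and 15.1 at RS, 52.4, 27.8 and 54.9 at ES, and 0, 3.15 and 12.0 in sperm. All genes had 6.20, 12.4 and 12.1 at MS, 7.93, 7.73 and 8.68 at RS, 22.8, 25.2 and 24.1 at ES, and 0.310, 0.207 and 13.5 in sperm. Esrrb was thus above the average gene body in every MS, RS and ES nucleosome list, above it in WT sperm, and below it in SV129 and cKO sperm.

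The other 9 members together had 12.0, 14.7 and 22.6 nucleosome calls per 100 kb of body at MS, and 12.0, 34.6 and 25.3 at RS. At ES they had 20.0, 21.3 and 38.6, and in sperm 0, 0 and 12.0. In the MS and RS lists and in cKO ES they too were above all genes, so the excess there was not particular to Esrrb. It was not spread over all of them: in WT RS, Zfp42 had 12 calls beyond 1 kb from its ends and Klf4 had 10, many of them overlapping. Pou5f1, Nanog, Sall4, Prdm14 and Tfap2c had none in that list. In SV129 ES, WT ES and WT sperm the other 9 were below all genes while Esrrb was above. They exceeded Esrrb in SV129 MS, cKO MS, WT RS and cKO RS.

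**Figure D5:**
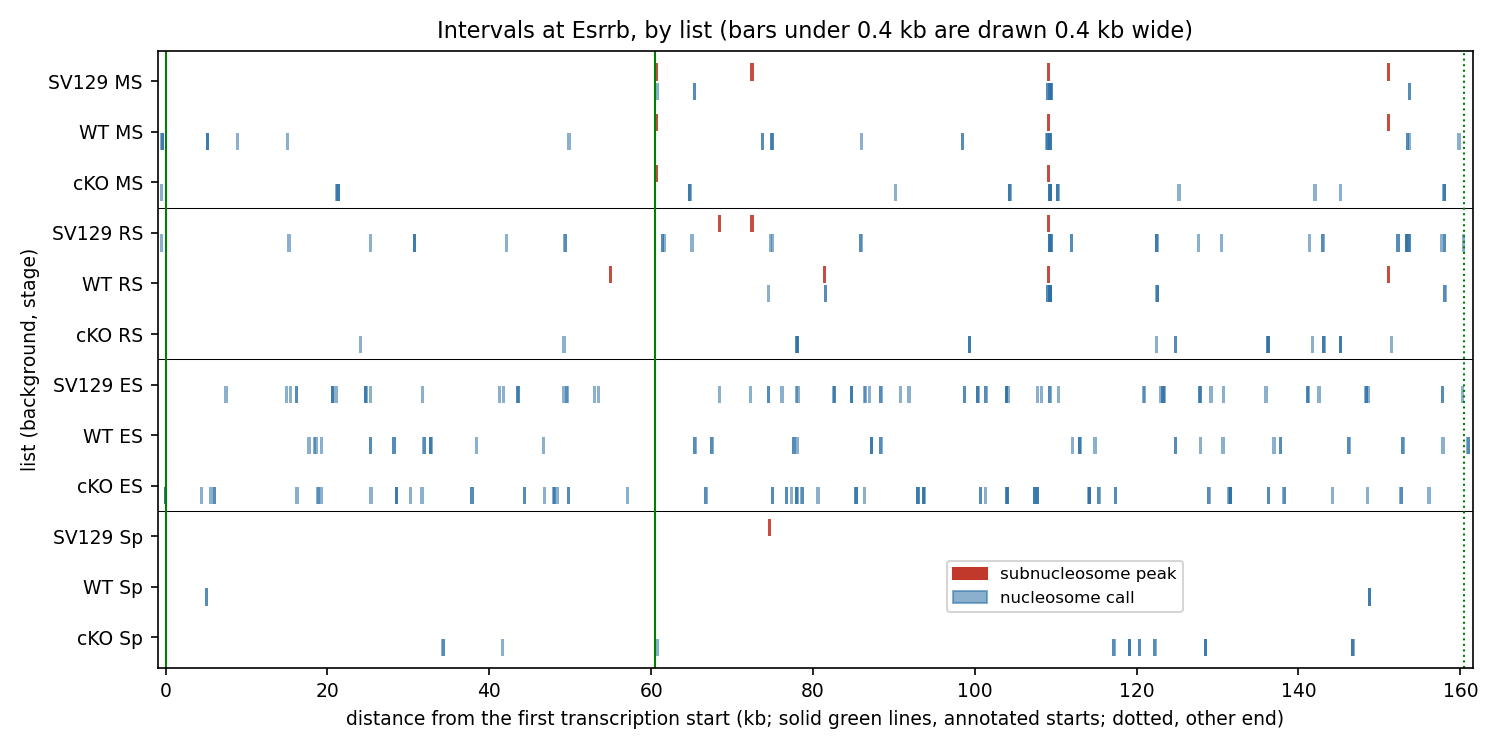
Intervals at Esrrb by list (vertical axis) against the distance from its first transcription start in kb (horizontal axis); red bars are subnucleosome peaks, blue bars nucleosome calls, solid green lines the annotated starts and the dotted line the other end, and narrow bars are widened to be visible. The second start has a peak at MS of each background, the inner site near 109 kb has one in 5 lists, and the ES lists are filled with nucleosome calls along the whole gene.

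Tfap2c, Lin28a and Nanog had few peaks. Tfap2c (chromosome 2, 172545678 to 172558622, 12.9 kb), an AP-2 factor of germ cell specification, had 1 peak each in WT MS (203 bp), WT RS (106 bp) and SV129 sperm (93 bp), all 4690 to 4989 bases from its lower-coordinate end. Both WT peaks were weak, scoring above 7.64% and 6.47% of their lists. Lin28a (chromosome 4, 134003330 to 134019196, minus strand, 15.9 kb) had 1 peak in SV129 MS (87 bp, 750 to 836 bases after its start) and 1 in SV129 RS (116 bp), at different places. Nanog (chromosome 6, 122707489 to 122714633, plus strand, 7.14 kb), the homeobox factor of the core network, had a single peak in any list, 75 bp wide in SV129 sperm, 298 to 372 bases after its start. Peaks of Lin28a and Nanog came from SV129 lists only, and those of Tfap2c from WT and SV129.

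Pou5f1 (chromosome 17, 35506032 to 35510777, plus strand, 4.75 kb), Sall4 (chromosome 2, 168748332 to 168767201, 18.9 kb) and Prdm14 (chromosome 1, 13113428 to 13127163, 13.7 kb) had no subnucleosome peak in any list. Each had one nearby at some stage. For Pou5f1, the nearest was 6.08, 6.02 and 6.15 kb from the gene at MS in SV129, WT and cKO, and 6.04, 6.07 and 243 kb away at RS. The nearest to Prdm14 at MS was 1.30 kb away in WT and 1.31 kb in cKO, just beyond the limit, and 34.9 kb in SV129. Sall4 had one at 6.10 kb in SV129 MS and 6.41 kb in WT MS, and at 134 kb in cKO MS.

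Pou5f1 was also bare of nucleosome calls before elongation. It had 0 at MS and RS in all 3 backgrounds, then 2, 5 and 1 at ES in SV129, WT and cKO, and 0 in sperm. The SV129 and WT calls lay at the far end of the gene, 4740 to 5654 bases from the start, and none was at the promoter printed above. The cKO call lay 2580 to 2729 bases into the gene, within the 250 bases before its second start. Prdm14 had 6 calls in WT MS, 2 in cKO MS, 4 each in WT ES and cKO ES, 1 in cKO sperm and none elsewhere. Sall4 had 31 calls in 8 lists, the most in WT ES (10) and cKO ES (9). Nanog had 7 calls in 5 lists, of which a stretch 5683 to 5867 bases into the gene recurred in SV129 at MS, RS and ES. Lin28a had 29 calls in 9 lists, and a stretch of it from 648 to 1339 bases after the start had calls in 5 of them.

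By gene ends, nucleosome calls reached as many members as subnucleosome peaks or more in 11 of the 12 groups, SV129 sperm being the exception. At MS, 3 genes had one in SV129 (Sox2, Klf4, Sall4), 6 in WT (Sox2, Klf4, Lin28a, Prdm14, Zfp42, Esrrb) and 4 in cKO (Sox2, Klf4, Prdm14, Esrrb), against 53.8%, 62.9% and 57.5% of all genes. At RS the numbers were 5 (Sox2, Klf4, Sall4, Zfp42, Esrrb), 3 (Sox2, Klf4, Zfp42) and 2 (Klf4, Zfp42), against 54.2%, 50.2% and 37.9%. At ES they were 5 in SV129 (Pou5f1, Sox2, Lin28a, Esrrb, Tfap2c), 8 in WT (all but Sox2 and Lin28a) and 5 in cKO (Sox2, Klf4, Sall4, Esrrb, Tfap2c), against 53.4%, 50.5% and 51.1%. In sperm they were 0, 1 (Klf4) and 2 (Sox2 and Klf4), against 7.44%, 5.34% and 44.5%.

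Set against those shares, WT ES was the list in which the members exceeded all genes by most, and cKO sperm was among the lists in which they fell short. The WT ES count came from far ends as well as starts: of the 7 members with an annotated start, Klf4 and Zfp42 had a call within 1 kb of one, against 38.5% of the 17492 genes with a promoter entry. Over end and body together, 8, 8 and 7 members had a call at MS in SV129, WT and cKO, 7, 5 and 6 at RS, 9, 9 and 10 at ES, and 0, 2 and 5 in sperm. All genes had 65.1%, 75.1% and 73.2%, then 68.4%, 63.1% and 63.9%, then 78.9%, 80.3% and 78.5%, and 10.4%, 8.79% and 71.7%. By this wider rule the ES lists had a call on 9 or 10 of the 10 genes, and the SV129 sperm list on none.

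For subnucleosome peaks the wider rule gave 4, 5 and 2 members at MS, 4, 5 and 0 at RS, 0 in each ES list, and 3, 0 and 0 in sperm. All genes had 60.5%, 63.4% and 44.9% at MS, 55.8%, 64.1% and 14.9% at RS, 0.964%, 0.507% and 0.535% at ES, and 31.6%, 11.6% and 4.15% in sperm. The genes added in the meiotic lists were Lin28a, Zfp42 and Esrrb in SV129, Esrrb and Tfap2c in WT, and Esrrb in cKO. In sperm of SV129, Esrrb and Tfap2c joined Nanog.

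The members' sites overlapped between lists of the same stage to different degrees. All 3 cKO MS peaks overlapped a WT and an SV129 peak, as 96.5% and 92.5% of all cKO MS peaks did. Of the 10 WT MS peaks, 6 overlapped an SV129 peak (all peaks, 71.1%) and 3 a cKO peak (42.0%), and of the 8 SV129 MS peaks, 6 overlapped a WT peak (80.0%) and 3 a cKO peak (44.4%). At RS, 5 of 8 SV129 peaks overlapped a WT peak (89.9%), 5 of 10 WT peaks an SV129 peak (45.0%), and none of either a cKO peak (13.4% and 7.04%). The 42 peaks merged into 17 sites, of which 8 were seen in 3 or more lists and 7 in 1 list. The 661 nucleosome calls merged into 232 stretches, of which 169 were in 1 list, 36 in 2 and 27 in 3 or more. At MS, 17 of 64 WT calls overlapped an SV129 call (all calls, 44.9%) and 20 a cKO call (38.5%). At RS, 28 of 54 WT calls overlapped an SV129 call (40.5%) and 8 a cKO call (13.9%). At ES, 13 of 107 SV129 calls overlapped a WT call (8.53%), and 5 of 82 WT calls a cKO call (6.66%), so low overlap at ES was shared by all calls of those lists.

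In sperm, SV129 had 3 subnucleosome peaks on the 10 genes (Nanog, Esrrb and Tfap2c) and 0 nucleosome calls. The peaks of 3, 0 and 0 members in SV129, WT and cKO stood beside 31.6%, 11.6% and 4.15% of all genes, in lists of 10715, 3024 and 1127 peaks, so they were close to the background. WT had 0 peaks and 6 nucleosome calls, 1 upstream of Klf4 and 5 in Esrrb. The cKO had 0 peaks and 32 calls: 19 in Esrrb, 9 in Klf4, 2 in Lin28a and 1 each in Sox2 and Prdm14. Pou5f1, Sall4 and Zfp42 had no interval of either class in any sperm list, though a cKO sperm call lay 1.07 kb from Zfp42, just beyond the limit. The lists themselves were of very unequal length, with 13615, 8628 and 347951 nucleosome calls in SV129, WT and cKO sperm, so the 32 calls come from a list of another size. The lists differed in score as well: 22.3%, 35.5% and 70.1% of their calls stood at the single most common score of the list.

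The sperm intervals were compared with those of earlier stages in the same background. None of the 3 SV129 sperm peaks overlapped an SV129 peak at MS, RS or ES, whereas 47.1%, 46.7% and 4.55% of all 10715 SV129 sperm peaks did. The Tfap2c peak overlapped the WT MS peak by 1 or more bases, the Esrrb one overlapped nucleosome calls of SV129 RS, WT RS and SV129 ES, and the Nanog one overlapped no interval of the other lists. Of the 6 WT sperm calls, 3 overlapped a WT call at MS, 1 at RS and 0 at ES, against 56.3%, 38.1% and 40.6% of all WT sperm calls. Of the 32 cKO calls, 4, 4 and 3 overlapped a cKO call at MS, RS and ES, against 7.26%, 4.04% and 6.42%. The WT share was near that of its whole list at MS and below it at RS and ES, on 6 calls. All 4 cKO calls shared with an earlier cKO stage lay in Klf4, and 3 of them overlapped one another. The cKO shares thus rest on 1 gene and give no measure for the members as a set.

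One place with calls at earlier stages and in sperm was upstream of Klf4. The WT sperm call at 476 to 327 bases before the start overlapped WT calls at MS and RS, and 3 cKO sperm calls (463 to 314, 511 to 362 and 531 to 382 bases before the start) fell on the same stretch. It was the one place on the members with nucleosome calls in the sperm of more than 1 background, though WT ES had no call there. When calls at the most common score of a list were left out, the WT sperm call was lost and WT sperm had 0 members with a call at an end. With an overlap of at least 50% of the interval required, 1 of the 6 WT calls was still shared with an earlier WT list. In SV129 sperm the nearest nucleosome call was 12.1 kb from Klf4.

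The genes around the members were counted from lists of other pluripotency genes (36) and other germline genes (35), written from general knowledge. A subnucleosome peak at an end was found for 16, 17 and 8 of the 36 at MS in SV129, WT and cKO, 13, 16 and 4 at RS, 0 at ES, and 8, 4 and 2 in sperm. Of the 35 germline genes, 20, 22 and 14 had one at MS, 17, 22 and 7 at RS, 0 at ES, and 5, 4 and 1 in sperm. Both lists stood nearer to the background shares than the 10 members at MS and RS. Those with a peak in sperm of both intact backgrounds were Klf5, Zfp281, Stat3 and Cnot3 among pluripotency genes and Etv5, Hormad1 and Prmt5 among germline genes. Taken singly, the SV129 and WT sperm lists had a peak at an end of 23.1% and 8.70% of all genes, and the share with both was not counted. Etv5, a factor of spermatogonial stem cell renewal, had 346 bp under peaks in SV129 sperm and 345 bp in WT sperm, and Stat3, the effector of LIF signalling, had 434 and 237 bp.

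Some companion genes had a peak at MS in both intact backgrounds and none in cKO MS, and the 10 of them with the most bases under peaks in WT MS were Utf1, Tet2, Rif1, Thap11, Hcfc1, Dnd1, Sohlh2, Foxo1, Bcl6b and Tex11. How many of all genes had this pattern was not counted. Taken singly, the SV129, WT and cKO MS lists had a peak at an end of 48.6%, 51.2% and 35.8% of all genes. These shares do not give the share with the pattern, so whether it is particular to these genes was not tested. No member shared this pattern within 1 kb, since Klf4 kept a peak in cKO MS and Sox2 and Zfp42 had none at an end in SV129 MS. For Zfp42 this hangs on the limit, as its inner SV129 MS peak begins 1001 bases from the start. With the limit at 2 kb Zfp42 had the pattern, the nearest cKO MS peak being 26.7 kb away. The presence pattern of Zfp42 given below hangs on the limit too. Over the 12 subnucleosome lists, the presence pattern of Klf4 at the ends was shared by 2162 other genes (9.88%), among them Lin28b, Ddx4, Sycp3 and Mael. That of Sox2 was shared by 178 genes (0.813%), with Kit and Lhx1 among the companions, that of Zfp42 by 258 (1.18%), with Dmrt1, and that of Nanog by 176 (0.804%). The empty pattern of Pou5f1, Lin28a, Sall4, Prdm14, Esrrb and Tfap2c was shared by 8905 genes (40.7%), 27 companions included, such as Dppa3, Nanos2 and Zscan10.

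Markers of cell types were counted in the same way as a check of the labels. At MS in SV129, WT and cKO, 10, 10 and 9 of 12 meiotic genes and 7, 8 and 6 of 12 spermatid genes had a subnucleosome peak at an end, and at RS 8, 10 and 2 of the meiotic genes and 12, 11 and 3 of the spermatid genes did. In WT the meiotic genes thus had as many peaks at RS as at MS, and they do not separate these fractions. For 12 spermatogonial genes the counts were 3, 5 and 2 at MS and 2, 6 and 1 at RS, for 12 Sertoli cell genes 2, 3 and 1 and then 2, 1 and 0, and for 8 Leydig cell genes 1, 1 and 0 at both stages. Of 10 blood and immune genes 1 had a peak in WT RS and none in the other MS and RS lists, and of 8 epididymal genes 2, 2 and 0 did at MS and 1, 2 and 0 at RS. All genes had 48.6%, 51.2% and 35.8% at MS and 43.1%, 50.3% and 12.0% at RS. In sperm of SV129, WT and cKO the counts were 1, 1 and 0 for meiotic, 2, 2 and 0 for spermatid, and 2, 1 and 0 for spermatogonial genes. They were 2, 0 and 1 for Sertoli genes, 0, 1 and 0 for Leydig genes, and 1, 0 and 0 each for blood and immune and for epididymal genes. The shares of all genes in these sperm lists were 23.1%, 8.70% and 3.55%. Nucleosome calls in cKO sperm, the list with 32 calls on the members, stood at an end of 7 of 12 Sertoli, 5 of 10 blood and immune, 1 of 8 Leydig, 1 of 8 epididymal, 3 of 12 spermatogonial, 3 of 12 spermatid and 1 of 12 meiotic genes, against 44.5% of all genes. In SV129 and WT sperm none of these markers had a nucleosome call, except 1 meiotic gene in WT, against 7.44% and 5.34% of all genes. Fractions were at least 85% pure by label, and the part of other cells in the members' peaks and calls was not tested.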

How the data were processed

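ATAC-seq libraries of 12 groups were represented by 24 interval lists, 1 of subnucleosome peaks and 1 of nucleosome calls per group. The submitters' processing notes name STAR 2.5.2a, MACS2 2.1.0.20140616 and the build GRCm38 (mm10); the role of each tool, the division into fragment classes and the way replicates were combined are not given in the sources used here. The score column that the authors deposited has no stated scale. It is 0 throughout the SV129 subnucleosome lists, and in those of WT and cKO the peak names carry the number of 1 library only. Nucleosome calls are all 150 bp wide and often overlap, so neighbouring calls are not separate nucleosomes.

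Intervals were joined to the RefSeq gene table (GRCm38.p6), which has no strand or exons, with Python 3.11.15, pandas 2.3.3 and numpy 2.4.6, at a minimum overlap of 1 bp. Strand and transcription starts came from the RefSeq promoter table for 7 genes. For Sall4, Prdm14 and Tfap2c distances are from the lower-coordinate end. The overlap counting was tested on simulated data. Shares of whole lists have Wilson 95% intervals in the tables (scipy 1.17.1), which cover counting error only. Depth is unknown, and conditions were compared without a test. The 10 genes and the companion and marker lists were chosen with earlier results of these data known. All 10 genes are named; companions are named if they had a peak in sperm of both intact backgrounds, or at MS in both intact backgrounds and not in cKO, at most 10 of each by covered length in WT. Alternatives changed the distance, the rule for overlap, the gene ends counted and the intervals kept by score.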

Additional observations from a re-analysis of the deposited data

How the results depend on the processing

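Counting an interval by its centre left all 24 counts of members close to those reported. Limiting ends to 500 bp moved 2 of 24 by more than 1.5 times, the nucleosome counts of SV129 RS and SV129 ES, both to 3. All genes had 48.4% and 39.2% there, and below the share of all genes under the same setting stands in brackets. At 2 kb, 8 moved. For subnucleosome peaks they were SV129 MS to 3 (52.7%) and cKO MS to 2 (38.7%). For nucleosome calls they were SV129 MS to 6 (58.2%), cKO MS to 7 (64.2%), WT RS to 5 (55.6%), cKO RS to 4 (47.8%), cKO ES to 9 (65.9%) and cKO sperm to 5 (56.6%). The share of all genes rose with the window too. Taking the gene body with 1 kb on either side moved 14: for subnucleosome peaks SV129 MS to 4, WT MS to 5, cKO MS to 2, SV129 RS to 4, WT RS to 5 and SV129 sperm to 3, and for nucleosome calls SV129 MS to 8, cKO MS to 7, WT RS to 5, cKO RS to 6, SV129 ES to 9, cKO ES to 10, WT sperm to 2 and cKO sperm to 5. For that wider rule the shares of all genes are given in the results. With transcription starts only, 6 moved, though counts out of 7 genes were set against counts out of 10. For subnucleosome peaks they were SV129 MS to 3 (50.8%) and cKO MS to 2 (37.9%). For nucleosome calls they were SV129 RS to 3 (54.6%), cKO RS to 1 (35.0%), SV129 ES to 2 (42.1%) and WT ES to 2 (38.5%). The shares at starts are of the 17492 genes with a promoter entry.

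Among subnucleosome peaks of WT and cKO, keeping the upper 50% by score moved the cKO MS count to 0 (all genes, 22.1%). Reducing WT to the length of the cKO list moved WT MS to 1 (37.6%) and WT RS to 0 (9.56%). Without nucleosome calls at the most common score of a list, 5 of 12 counts moved: SV129 MS to 1 (51.3%), SV129 RS to 3 (50.4%), cKO ES to 3 (41.2%), WT sperm to 0 (3.12%) and cKO sperm to 1 (28.7%). Requiring an overlap of 50% moved the WT sperm calls shared with an earlier stage to 1. The cause of these changes was not tested beyond what each setting removes or adds by construction. No paired analysis was possible because each group had 1 deposited list and no values per library, and for the same reason no replicate was left out. Depth is unknown, and a missing interval does not show a closed site.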
